A study of Mus musculus with 20 samples.

Results

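Cytochrome P450 family 2 is the largest P450 family of the mouse, and its members were followed here through the livers of mice with a reduced dose of the transcription factor gene Bnc2. Every gene symbol on the array that named a family 2 P450 by its subfamily letter and number was taken, except Cyp2c70, which gave 49 of the 22180 genes measured. Of these, 46 were annotated as protein coding and 3 as transcribed pseudogenes (Cyp2d13, Cyp2d37-ps and Cyp2c53-ps). The subfamilies were Cyp2c with 14 members, Cyp2d with 10, Cyp2j with 7, Cyp2b with 5 and Cyp2a with 4. Cyp2ab1, Cyp2e1, Cyp2f2, Cyp2g1, Cyp2r1, Cyp2s1, Cyp2t4, Cyp2u1 and Cyp2w1 each stood alone in their subfamily.

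Family 2 P450s are haem enzymes of the endoplasmic reticulum that insert oxygen into drugs, steroids, fatty acids and other lipids, with electrons passed on by the reductase Por and by cytochrome b5. Most lie in clusters of closely related copies, many are made mainly in hepatocytes around the central vein, and several are governed by the nuclear receptor CAR (gene Nr1i3), by HNF4A and C/EBP factors, or by the sex-specific rhythm of growth hormone. In mouse liver Cyp2b9, Cyp2b13 and Cyp2a4 are known as female-predominant genes and Cyp2d9 as a male-predominant gene.

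Livers of 20 adult male mice were compared, 10 WT and 10 heterozygous for a Bnc2 gene trap (Bnc2+/-). The trap, from the Ayu21-18 line, places the vector pU21 between exons 2a and 3. It acts in every cell of the body, and mice with both copies disrupted die soon after birth, so that only loss of 1 copy could be examined. All mice, the WT littermates included, were of a mixed C57BL/6 x CBA background and 13 to 19 weeks of age. All had eaten, over 7.5 weeks, a diet named CDAA-HFSC. This diet lacks choline, supplies amino acids in place of protein, holds 2% cholesterol, 21% fat and 35% sucrose, and provokes steatohepatitis with fibrosis. No value of a chow-fed liver was used, so the effect of the diet itself was not examined. Each mouse gave 1 array of total liver RNA, and levels are log2 signals, on which a step of 1 is a doubling.

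The log2 level of Bnc2 itself was 5.37 ± 0.25 in WT and 5.41 ± 0.13 in Bnc2+/- livers (SD, n = 10 of each), so it does not check the genotype labels. Array medians ran from 6.62 to 6.71, and pairwise correlations between arrays over all genes from 0.987 to 0.994. Hepatocyte markers were bright throughout, as the mean of 8 of them lay between 17.8 and 17.9 in every mouse. As a gauge of dim signal, 95% of 1105 olfactory receptor genes averaged under 6.99. By that gauge 31 of the 49 members stood above dim signal and 18 did not, and Bnc2 lay in the dim range in every mouse. In bulk tissue, fewer cells of a type and less RNA per cell cannot be told apart.

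Some copies within this family have near-identical promoters. Shown next, 5′ to 3′, are stretches ending at the base before the annotated start, for the members of the pairs with r over 0.8 across mice in both genotypes, described further on (Cyp2a4 with Cyp2b13, and Cyp2c37 with Cyp2c50). Cyp2b9, the near copy of Cyp2b13 with the widest spread of the family, Cyp2b10, a CAR target, and Cyp2a5, the near copy of Cyp2a4, are shown for comparison. They come from RefSeq on the GRCm38.p6 build, all on the plus strand. Capitals mark the letters TTNNGCAA or their reverse complement, a C/EBP-type motif, and CAAAGTNCA or its reverse complement, an HNF4-type motif. In the stretches shown, the capitals of one motif do not overlap those of the other.
Cyp2b9, chr7:26173219-26173408: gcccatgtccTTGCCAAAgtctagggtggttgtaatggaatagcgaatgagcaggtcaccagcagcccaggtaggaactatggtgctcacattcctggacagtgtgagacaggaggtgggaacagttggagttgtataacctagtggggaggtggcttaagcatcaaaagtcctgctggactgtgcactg
Cyp2b13, chr7:26061305-26061494: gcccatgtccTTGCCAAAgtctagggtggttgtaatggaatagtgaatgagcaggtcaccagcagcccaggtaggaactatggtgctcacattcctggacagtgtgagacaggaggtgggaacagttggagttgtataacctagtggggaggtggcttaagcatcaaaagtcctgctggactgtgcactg
Cyp2b10, chr7:25897558-25897657: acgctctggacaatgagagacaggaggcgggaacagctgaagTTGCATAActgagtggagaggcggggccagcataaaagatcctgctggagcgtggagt
Cyp2a4, chr7:26307092-26307191: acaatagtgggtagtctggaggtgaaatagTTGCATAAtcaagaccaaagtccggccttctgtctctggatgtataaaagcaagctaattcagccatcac
Cyp2a5, chr7:26835239-26835338: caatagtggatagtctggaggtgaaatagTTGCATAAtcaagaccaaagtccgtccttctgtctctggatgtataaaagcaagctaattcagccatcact
Cyp2c37, chr19:39992324-39992423: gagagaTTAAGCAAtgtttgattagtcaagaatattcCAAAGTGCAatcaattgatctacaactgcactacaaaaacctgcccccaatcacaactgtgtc
Cyp2c50, chr19:40089579-40089678: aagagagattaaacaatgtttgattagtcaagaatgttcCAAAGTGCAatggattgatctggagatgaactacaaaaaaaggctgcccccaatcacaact

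The promoters of Cyp2b9 and Cyp2b13 were 99.2% identical over 250 aligned bases, with the last 100 bases the same letter for letter. Cyp2a4 and Cyp2a5 shared 98.4%, Cyp2c37 and Cyp2c50 88.4%, and Cyp2b9 and Cyp2b10 78.2%. The promoters of Cyp2a4 and Cyp2b13 were not aligned with each other. Promoters were found for 39 of the 49 members. Within 250 bases upstream of the start, on either strand, the C/EBP-type letters occurred in 11 of these 39 members against 9.56% of all 32851 promoters. All 5 Cyp2b members held them, beginning 180 bases upstream in Cyp2b9 and Cyp2b13 and 58 in Cyp2b10. The stretches shown are 190 bases long for Cyp2b9 and Cyp2b13 and 100 for the others. Near-identical copies were counted separately. The HNF4-type letters occurred in 7 of 39 against 1.19% of all promoters, and 6 of the 11 Cyp2c members with a promoter held them. A TATA box, TATAAA, occurred in 16 of 39 against 12.4% of all promoters, including all 4 Cyp2a and all 5 Cyp2d members with a promoter but none of the 5 Cyp2b members. A match of letters describes the sequence and does not show that a factor binds there. Transcripts of close copies can also bind each other's array probes, so the levels of near-identical members are uncertain as measures of 1 gene.

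No member passed the test between genotypes. With limma and Benjamini-Hochberg adjustment over all genes, 0 of 49 members had an adjusted p under 0.05, as did 0% of all genes, and the smallest adjusted p among members was 0.509. Testing the same values by permuting the genotype labels also gave 0. At an unadjusted p under 0.05, 3 members were higher in Bnc2+/- livers, against 2.78% of all genes. None of the 49 was lower at that level, against 3.63% of all genes. These 3 were Cyp2f2, Cyp2c65 and Cyp2b10, and 2 of them lay in the range of dim signal. The 2 groups of mice overlapped in all 49 members, and 0% of all genes had groups that stood apart.

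The differences leaned to one side. Levels averaged higher in Bnc2+/- mice for 39 of 49 members (79.6%), against 51.0% of all genes, and the median difference was 0.11 against 0.00 over all genes. Among the 31 members above dim signal, 24 were higher on average (77.4%, with a median of 0.10), against 51.2% of all genes above dim signal. The 18 members in the dim range leaned the same way. Of them 15 were higher on average (83.3%, with a median of 0.12), against 50.7% of all genes in that range. Leaving the pseudogenes out gave 37 of 46. These counts carry no test, since some members vary together among mice and close copies share sequence. By subfamily, all 14 Cyp2c and all 5 Cyp2b members were higher on average, with median differences of 0.18 and 0.34, as were 7 of 10 Cyp2d, 5 of 7 Cyp2j and 2 of 4 Cyp2a members; differences between subfamilies were not tested. Of the Cyp2b members 2 of 5, and of the Cyp2c members 11 of 14, stood above dim signal. Cyp2c37 and Cyp2c50, at 0.04 and 0.02, changed sign when single mice were left out, as did Cyp2b9.

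**Figure D1:**
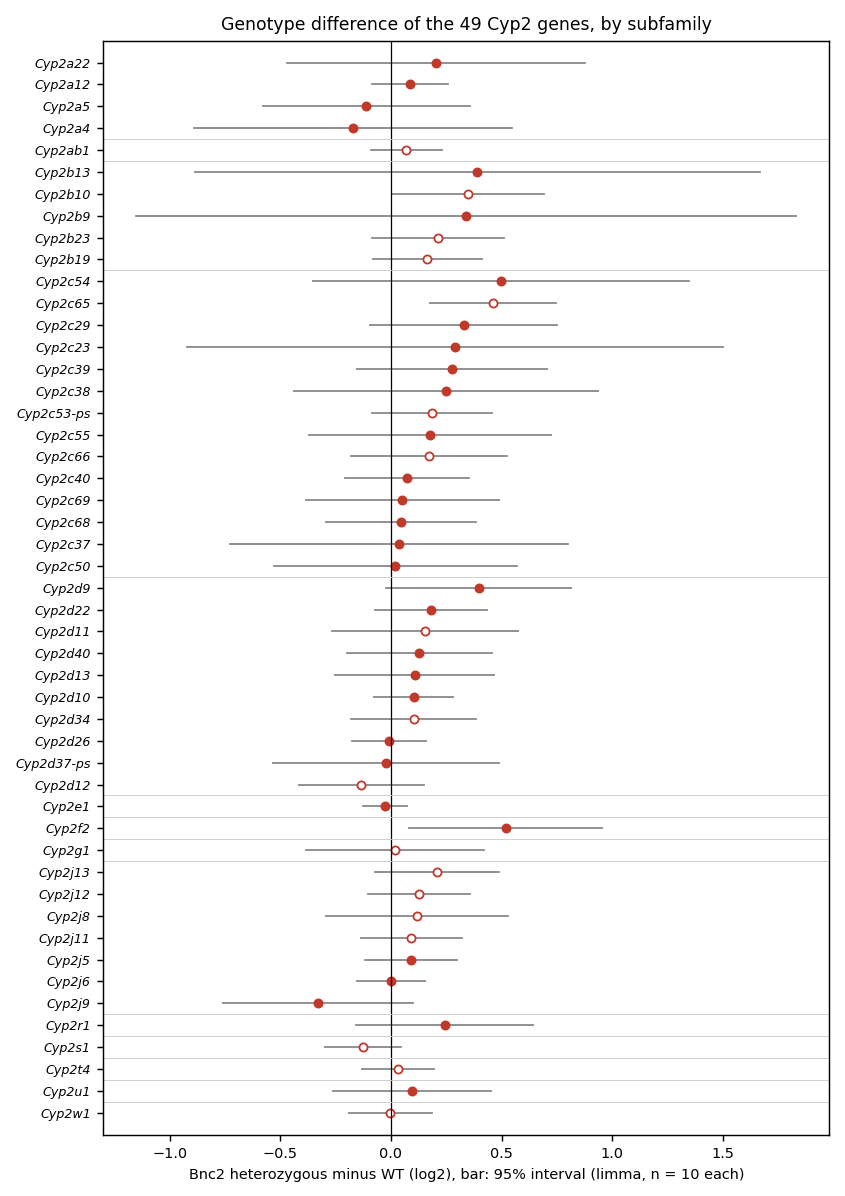
Heterozygous minus WT difference of each of the 49 members (log2, horizontal axis) with its 95% interval from limma, 10 mice of each genotype, grouped by subfamily. Filled points are members above dim signal and open points are members at or below it. The points of Cyp2c and Cyp2b all lie above 0, and the intervals of Cyp2f2, Cyp2c65 and Cyp2b10 alone do not reach 0, before any adjustment.

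Cyp2f2 had the largest mean difference of the family. It encodes the P450 that activates naphthalene in the airways and is made in periportal hepatocytes of the liver. In WT mice its lowest, median and highest levels were 11.54, 12.25 and 13, and in Bnc2+/- mice 11.44, 12.85 and 13.19. The groups overlapped over nearly their whole range, although 8 of 10 Bnc2+/- mice lay above the WT mean. The difference was 0.52 with an SE of 0.21, a fold of 1.43 with a 95% interval of 1.06 to 1.94 (limma p = 0.0219, adjusted p = 0.675, permutation p = 0.0383). Its pair of probe sets differed in signal, at 16.1 and 8.76, and both were higher on average in Bnc2+/- mice, by 0.56 and 0.48. Of 7 measured periportal markers 4 were higher on average and 3 lower. Pck1, an enzyme of gluconeogenesis, had a difference of -0.58 (SE 0.20), Cps1 of the urea cycle one of 0.13 (SE 0.07) and Hsd17b13, a lipid droplet protein, one of 0.17 (SE 0.11), and the part of zonation in the Cyp2f2 difference was not tested.

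Cyp2c65 and Cyp2b10 stood at signal levels that olfactory receptor genes also reach. Cyp2c65, a member known from the intestine, ran from 3.58 to 4.30 in WT mice, with a median of 4.05, and from 3.95 to 5.03 in Bnc2+/- mice, with a median of 4.35. The difference was 0.46 with an SE of 0.14 (limma p = 0.00284, adjusted p = 0.509). Cyp2b10, the classical CAR target that phenobarbital induces, ran from 4.36 to 5.75 in WT mice, with a median of 5.09, and from 4.42 to 5.92 in Bnc2+/- mice, with a median of 5.47. Its difference was 0.35 with an SE of 0.17 (limma p = 0.0459, adjusted p = 0.775), and the permutation p was 0.0678. For Cyp2b10, 9 of 10 Bnc2+/- mice lay above the WT mean, and the remaining mouse, Bnc2+/- replicate 10, was the lowest of its group.

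Among the Cyp2c members above dim signal, enzymes that oxidise arachidonic acid and other lipids, the differences were small beside the spread between mice. Cyp2c29, an arachidonate epoxygenase, had 10.78, 11.42 and 12.01 as its lowest, median and highest WT levels and 10.20, 11.97 and 12.12 in Bnc2+/- mice. The difference of 0.33 had an SE of 0.20 (limma p = 0.12), and 9 of 10 Bnc2+/- mice lay above the WT mean, with Bnc2+/- replicate 1 far below at 10.20. Without that mouse the difference was 0.50, and over all mice left out singly it was at least 0.26. Its pair of probe sets read 16.4 and 6.74 on average, so the mean per gene blends a bright and a dim signal. Cyp2c54, an epoxygenase of linoleic and arachidonic acid, had a difference of 0.50 with an SE of 0.41, which was 0.251 without Bnc2+/- replicate 10 and 0.697 without WT replicate 10. Cyp2c37, which hydroxylates arachidonic acid, and Cyp2c50, an epoxygenase, differed by 0.04 and 0.02, with 95% intervals of -0.73 to 0.80 and -0.53 to 0.57. Such intervals leave room for differences in either direction that these numbers of mice could not resolve.

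In the Cyp2d subfamily, Cyp2d9, the male-predominant testosterone 16-alpha-hydroxylase, had the smallest p. It ran from 11.89 to 13.58 in WT mice, with a median of 12.92, and from 12.53 to 13.74 in Bnc2+/- mice, with a median of 13.20. The difference was 0.40 with an SE of 0.20 (limma p = 0.0627, adjusted p = 0.798). Every Bnc2+/- mouse exceeded the 4 lowest WT mice, while the upper ends of both groups coincided. Cyp2d26 differed by -0.01 with an SE of 0.08, and Cyp2d12, a dim member, by -0.13 with an SE of 0.14. Over the 10 Cyp2d members, 2 of them pseudogenes, the differences ran from -0.13 to 0.40.

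The Cyp2a members did not lean to one side. Cyp2a4, a steroid 15-alpha-hydroxylase, ran from 13.29 to 16.52 in WT and from 13.13 to 15.51 in Bnc2+/- mice, and its difference of -0.17 had an SE of 0.35. Cyp2a5, the coumarin 7-hydroxylase, differed by -0.11 with an SE of 0.23, and Cyp2a12, which hydroxylates steroids and bile acids at carbon 7, by 0.09 with an SE of 0.08.

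Of the 7 Cyp2j members, arachidonate epoxygenases of several organs, 3 stood above dim signal. Cyp2j9 had the most negative difference of the family. It ran from 6.90 to 8.75 in WT mice, with a median of 7.78, and from 6.83 to 8.17 in Bnc2+/- mice, with a median of 7.37. The difference of -0.33 had an SE of 0.21 (limma p = 0.124, adjusted p = 0.846). The bright member Cyp2j5 differed by 0.09 with an SE of 0.10, and the dim member Cyp2j13 by 0.21 with an SE of 0.14. All 7 Cyp2j genes lie on chromosome 4, as Bnc2 does. Which parental strain gave the alleles around the gene trap was not analysed here, so an effect of the trap and of alleles linked to it cannot be told apart.

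Among the members that stand alone, Cyp2e1, which oxidises ethanol and paracetamol in pericentral hepatocytes, averaged 19.86 in WT and 19.83 in Bnc2+/- mice. All its values lay between 19.68 and 19.92, just under the array maximum of 19.93, where differences are compressed. Cyp2r1, a vitamin D 25-hydroxylase, ran from 10.58 to 12.08 in WT and from 11.00 to 12.17 in Bnc2+/- mice, a difference of 0.24 with an SE of 0.19. Cyp2u1, an omega-hydroxylase of long-chain fatty acids, differed by 0.10 with an SE of 0.17. The dim members were Cyp2s1, an enzyme of epithelia outside the liver, with a difference of -0.13, Cyp2g1 of the olfactory mucosa with 0.02, Cyp2ab1 with 0.07, Cyp2t4 with 0.03 and Cyp2w1 with 0.00. None of these had an unadjusted p under 0.05.

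**Figure D2:**
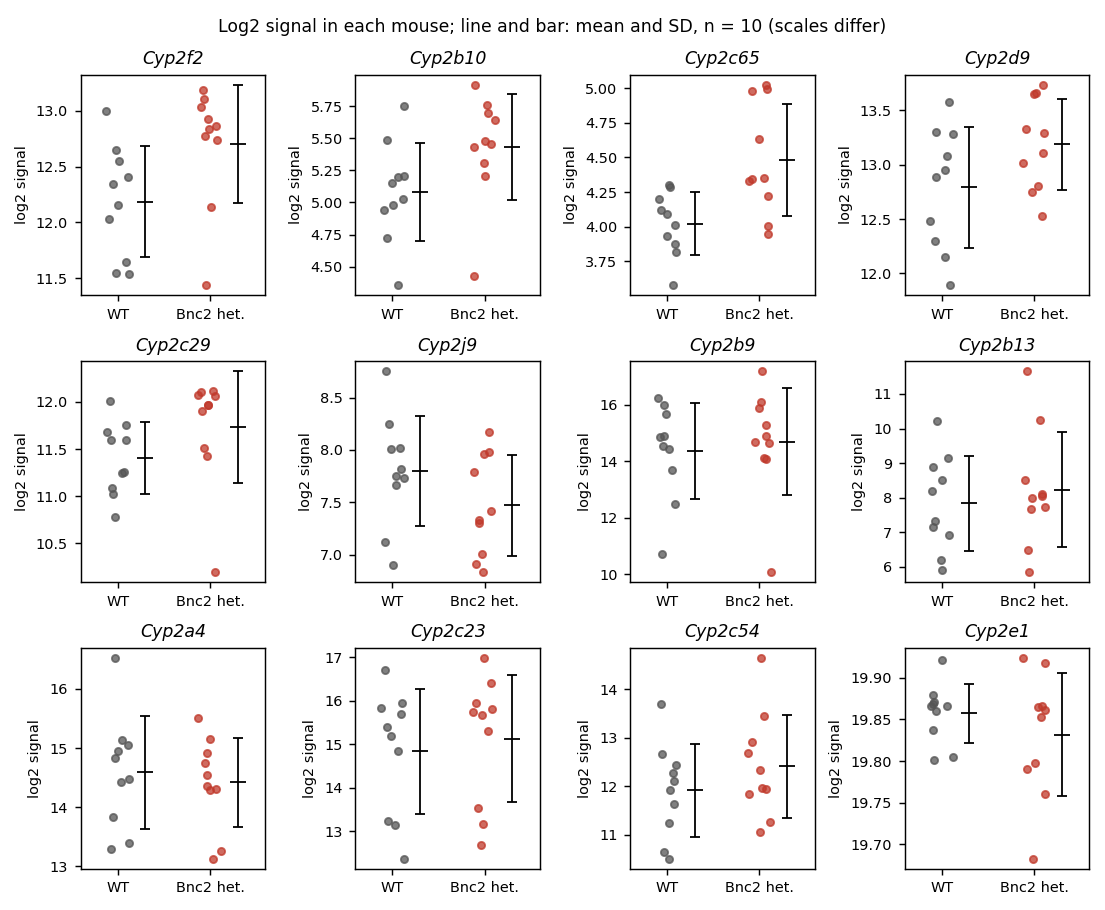
Log2 signal in each mouse for 12 members, WT in grey and Bnc2+/- in red, 1 point per mouse, with the mean and SD of 10 mice beside each group; each panel has its own vertical scale. The groups overlap in every panel, and in Cyp2b9 WT replicate 9 and Bnc2+/- replicate 3 stand far below the others, at 10.72 and 10.09.

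Some members varied widely between mice of the same genotype. The SD between mice, after removing the genotype means, was over 1 for 4 members (8.16%), against 0.347% of all genes. Among members above dim signal the share was 12.9%, against 0.652% of all genes above dim signal. The median SD was 0.41 over the 49 members and 0.23 over all genes. These shares are descriptions, without a test.

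Cyp2b9 had the largest SD of the family, 1.79, which ranked 9 among all genes. It ran from 10.09 to 17.18 over the 20 mice, a 136-fold range of signal. Its WT levels were 10.72, 14.70 and 16.25 (lowest, median and highest), and its Bnc2+/- levels 10.09, 14.79 and 17.18. The difference of 0.34 between genotypes had an SE of 0.72, so that a 95% interval of -1.15 to 1.83 covered large changes in both directions. Cyp2b13, its near copy, had an SD of 1.53 (rank 18) and a 55.6-fold range. Its WT levels were 5.92, 7.76 and 10.21, and its Bnc2+/- levels 5.85, 8.03 and 11.65. In both genes Bnc2+/- replicate 3 and WT replicate 9 were the lowest of their groups, and Bnc2+/- replicate 7 was the highest.

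Cyp2c23, an arachidonate epoxygenase, had an SD of 1.45 (rank 22) and followed another order of mice. Its WT levels were 12.36, 15.30 and 16.71 (lowest, median and highest), and its Bnc2+/- levels 12.68, 15.72 and 16.98. In it 3 WT and 3 Bnc2+/- mice lay at 13.53 or lower, and the other mice at 14.84 or higher. Cyp2c54 had an SD of 1.02 (rank 72), with WT levels of 10.50, 12.02 and 13.70 and Bnc2+/- levels of 11.06, 12.15 and 14.64. At the other end, Cyp2e1 had an SD of 0.06, near the array maximum. Bnc2+/- replicate 3 was the lowest of all mice in 12 members and Bnc2+/- replicate 10 the highest in 10.

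**Figure D3:**
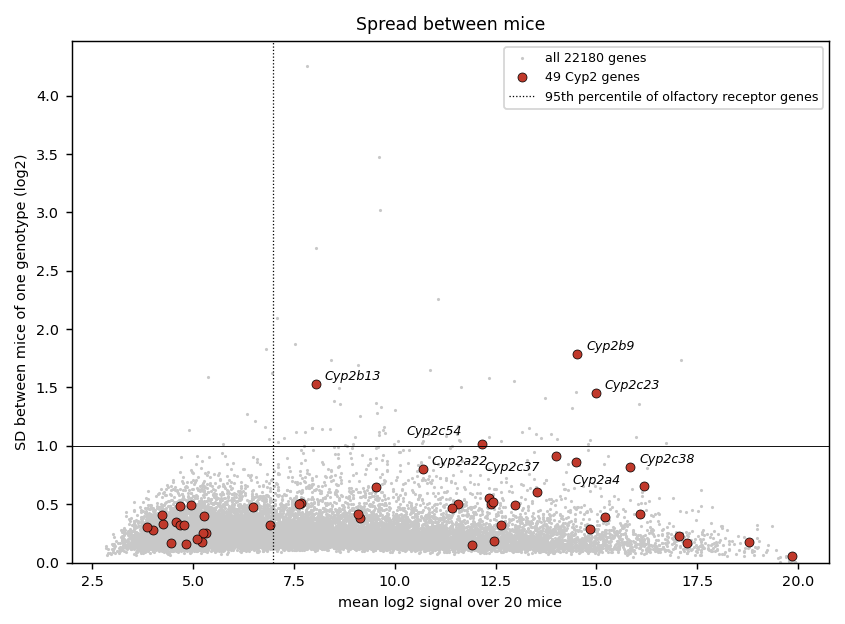
SD between mice of one genotype (log2, vertical axis) against mean log2 signal over 20 mice (horizontal axis), with 49 members in red and all 22180 genes in grey; the dotted line marks the 95th percentile of olfactory receptor genes, 6.99, and the horizontal line an SD of 1. Cyp2b9, Cyp2b13, Cyp2c23 and Cyp2c54 lie above an SD of 1.

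Correlations between members across mice were computed within each genotype over 10 mice for all 465 pairs of the 31 members above dim signal, 930 relations in all, and the pairs with r over 0.8 in both genotypes were named. There were 2. Cyp2a4 and Cyp2b13 correlated at r = 0.879 in WT (permutation p = 0.0008, adjusted 0.0796) and 0.925 in Bnc2+/- mice (permutation p = 0.00057, adjusted 0.0757). By rank, rho was 0.903 in WT (permutation p = 0.00086, adjusted 0.0727). In Bnc2+/- mice the order of both genes was identical, with rho = 1.0 (permutation p = 2e-05, adjusted 0.0139). Without the 2 mice farthest from the median, r was 0.714 and 0.938. Neither r passed after adjustment, and the rank correlation in Bnc2+/- mice did.

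Cyp2c37 and Cyp2c50, which lie near each other on chromosome 19, correlated at r = 0.874 in WT (permutation p = 0.00226, adjusted 0.0919) and 0.816 in Bnc2+/- mice (permutation p = 0.00677, adjusted 0.141). Their rho was 0.915 and 0.721 (permutation p = 0.00052 and 0.023, adjusted 0.0604 and 0.311), and without 2 mice r was 0.796 and 0.682. Over all 465 pairs, counted by r after adjustment, 2 passed in WT mice, 1 in Bnc2+/- mice and 0 in both. In WT these were Cyp2a12 with Cyp2a22 (r = 0.956, adjusted permutation p = 0.0186) and Cyp2c37 with Cyp2d26 (r = 0.944, adjusted permutation p = 0.0372). In Bnc2+/- mice it was Cyp2c40 with Cyp2f2 (r = 0.869, adjusted permutation p = 0.0372). Counted by rho, 1 pair passed in WT mice, Cyp2a12 with Cyp2a22 (rho = 0.976, adjusted permutation p = 0.0139), and 2 in Bnc2+/- mice, with 0 in both. The 2 were Cyp2a4 with Cyp2b13, given above, and Cyp2c54 with Cyp2e1 (rho = 0.952, adjusted permutation p = 0.0403). All values of Cyp2e1 lay just under the array maximum, where differences are compressed, and in WT mice its rho with Cyp2c54 was 0.43. Cyp2b9 and its near copy Cyp2b13 had r = 0.838 and 0.753 in WT and Bnc2+/- mice, and neither passed (adjusted permutation p = 0.0796 and 0.205). Shared probe sequence between close copies was not tested as a part of these relations.

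**Figure D4:**
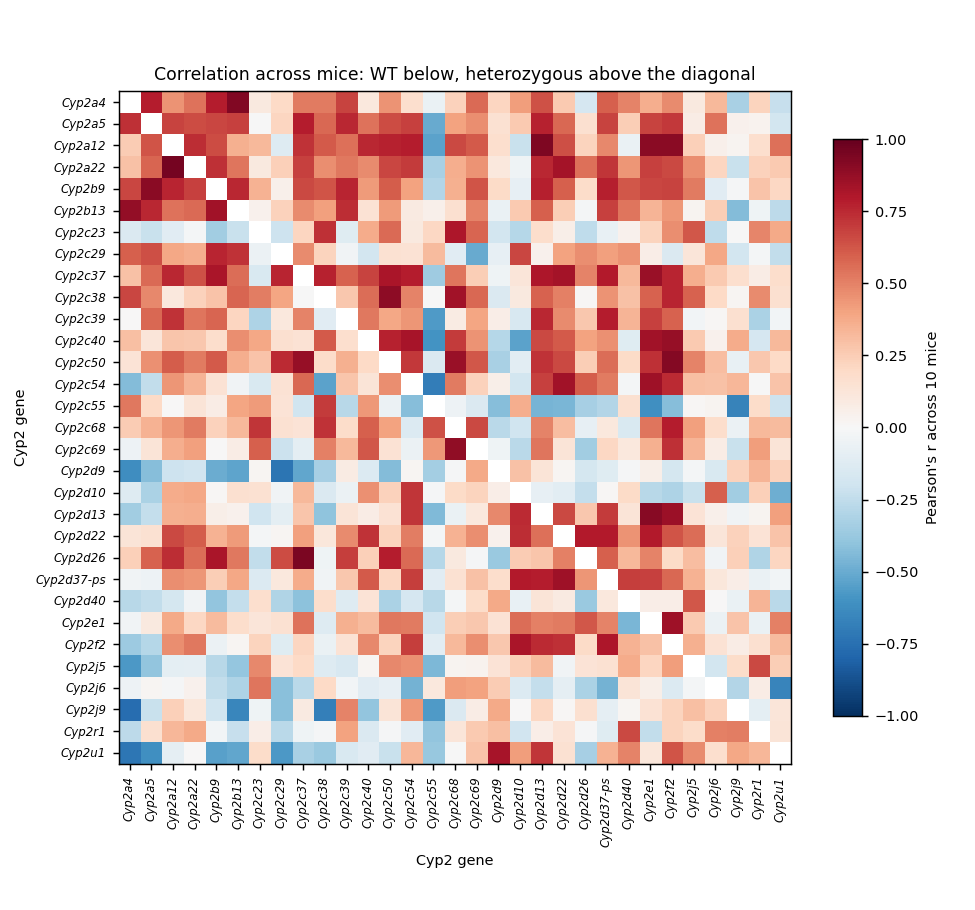
Pearson's r across 10 mice for every pair of the 31 members above dim signal, WT below the diagonal and Bnc2+/- above it, on a scale from -1 (blue) to 1 (red). Cyp2a4 with Cyp2b13 and Cyp2c37 with Cyp2c50 are over 0.8 on both sides of the diagonal.

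Nr1i3, which encodes CAR, was set against the members after its values and theirs had been seen, over 62 relations. The adjusted p-values cover these relations and not the choice of Nr1i3, so a pass here describes the same data that led to the choice. It did not differ between genotypes beyond the spread, with a difference of -0.02 and an SE of 0.27 (limma p = 0.948). Its levels were 13.40, 14.28 and 14.97 (lowest, median and highest) in WT and 12.67, 14.08 and 15.34 in Bnc2+/- mice. Cyp2c37 was the only member to pass in both genotypes. Its r with Nr1i3 was 0.883 in WT (permutation p = 0.00176, adjusted 0.013) and 0.876 in Bnc2+/- mice (permutation p = 0.00019, adjusted 0.00992). Its rho was 0.745 in WT (permutation p = 0.017, adjusted 0.0878) and 0.952 in Bnc2+/- mice (permutation p = 0.00015, adjusted 0.0093). Without the 2 mice farthest from the median Nr1i3 level, r was 0.899 and 0.672, and without Bnc2+/- replicate 3, the mouse with the lowest Nr1i3, it was 0.767. Against the mean of the hepatocyte markers Cyp2c37 had r = 0.194 and 0.391 in WT and Bnc2+/- mice. That mean lay between 17.8 and 17.9 in every mouse, with several of its markers near the array maximum, so a low r with it says little. Against the SD of gene values on the array, Cyp2c37 had r = -0.401 and -0.0177 in WT and Bnc2+/- mice. These values are descriptions.

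The remaining relations with Nr1i3 were less even. By r, 2 members passed in WT mice, Cyp2c37 and Cyp2d26 (r = 0.901, adjusted permutation p = 0.0127), and 12 passed in Bnc2+/- mice. By rank 0 passed in WT and 2 in Bnc2+/- mice. Of the 12, Cyp2a12 went from r = 0.801 to 0.365 without the 2 farthest mice and Cyp2e1 from 0.9 to 0.718, so that part of these relations rested on few mice. Cyp2e1 also lay just under the array maximum, where differences are compressed. In all, 20 of 31 members had a positive r in both genotypes and 2, Cyp2c55 and Cyp2d9, a negative one. For Cyp2c55, which makes hydroxylated arachidonic acid, r was -0.515 and -0.622, and neither passed (adjusted permutation p = 0.258 and 0.159). Cyp2c29 had r = 0.46 in WT and 0.114 in Bnc2+/- mice, and neither passed (adjusted permutation p = 0.325 and 0.81). The CAR target Cyp2b10 was in the dim range and not among the members set against Nr1i3.

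**Figure D5:**
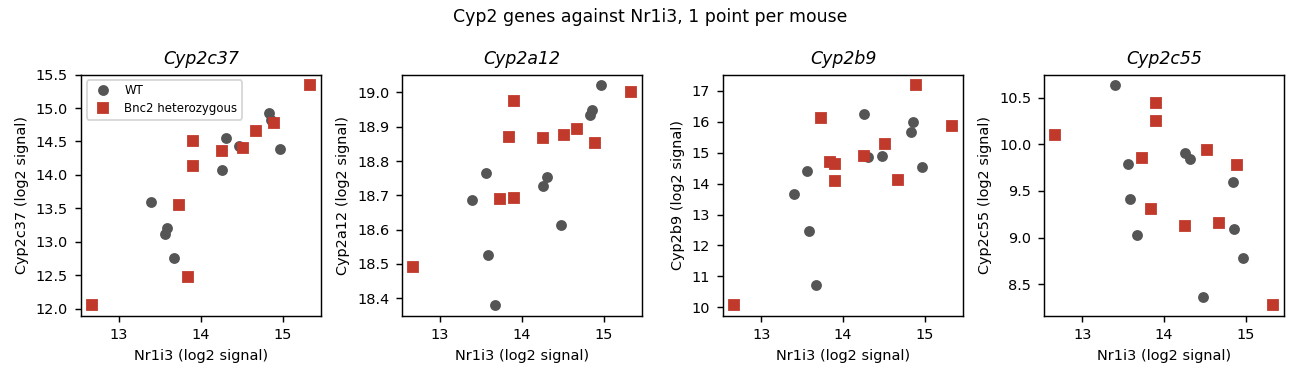
Log2 signal of 4 members (vertical axes) against log2 signal of Nr1i3 (horizontal axis), 1 point per mouse, WT as grey circles and Bnc2+/- as red squares. Cyp2c37 was higher where Nr1i3 was higher in both genotypes, with r of 0.883 and 0.876, whereas Cyp2c55 had r of -0.515 and -0.622.

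The machinery around the family was examined through gene lists, in none of which a gene passed the adjusted limma test. Of 4 measured redox partners, Cyb5r3, the reductase of cytochrome b5, was higher on average in Bnc2+/- mice, by 0.17 with an SE of 0.06 (limma p = 0.00786 before adjustment), and the other 3 had no unadjusted p under 0.05. Por was not analysed here. Of 11 genes of haem synthesis and breakdown 5 were higher and 6 lower on average. Blvrb, a biliverdin reductase, stood at -0.29 (SE 0.13, limma p = 0.033 before adjustment) and Hmox1, which opens the haem ring, at -0.28 (SE 0.13). Alas1, which makes the first step of haem synthesis, had a difference of -0.23 with an SE of 0.18. Of 17 receptors and transcription factors 6 were higher and 11 lower on average. Nfe2l2, the regulator of antioxidant genes, was higher by 0.30 with an SE of 0.10 (limma p = 0.00825 before adjustment), Rxra, the partner of CAR and PXR, had a difference of -0.19 with an SE of 0.09, and Nr1i2, the PXR gene, one of 0.02 with an SE of 0.15.

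Of 10 CAR and PXR targets outside the family, 5 were higher and 5 lower on average, with Cyp3a11 at 0.15 (SE 0.07) and Gadd45b, a stress-response gene, at -0.36 (SE 0.17). Of 13 male-biased liver genes 9 were higher on average. The smallest unadjusted p among these belonged to Nudt7, a peroxisomal coenzyme A hydrolase, at 0.78 (SE 0.20), and Mup20, a major urinary protein, at 0.41 (SE 0.13). Larger differences with wider errors in that list were those of Cyp4a12a, a fatty acid hydroxylase, at 1.16 (SE 0.61), and Slco1a1, an organic anion transporter, at -1.45 (SE 1.21). Of 8 measured female-biased genes 4 were higher and 4 lower on average, and only 3 of the 8 stood above dim signal. Of 13 genes of the growth hormone axis 6 were higher and 7 lower on average. Pericentral markers were higher on average in 9 of 13, with a median difference of 0.09.

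Markers of other liver cells were mostly lower on average in Bnc2+/- mice, and their part in the lean of the family was not tested. All 6 Kupffer cell markers were lower on average in Bnc2+/- mice, with a median of -0.34. Their mean per mouse ran from 11.9 to 13.3 in WT and from 10.9 to 12.9 in Bnc2+/- mice. Of 7 stellate cell and myofibroblast markers 5 were lower on average, with means per mouse of 11.7 to 12.4 in WT and 11.2 to 12.0 in Bnc2+/- mice. Of 5 T cell markers 4 were lower on average, with means per mouse of 6.30 to 7.54 and 5.73 to 6.79, and only 2 of the 5 stood above dim signal. Of 11 acute phase and cytokine genes, a list that was not chosen as markers of a cell type, 8 were lower on average. Their means per mouse were 14.1 to 15.6 in WT and 14.1 to 15.1 in Bnc2+/- mice. All 4 measured cholangiocyte markers and 4 of 5 sinusoidal endothelial markers were lower on average too, with medians of -0.08 each. Only 2 of the 4 cholangiocyte markers stood above dim signal. The hepatocyte markers had a median difference of 0.01, but Alb, Apob and Ttr among them averaged 19.77 or more, near the array maximum where differences are compressed. The mean of the 31 members above dim signal ran from 12.6 to 13.4 in WT and from 12.3 to 13.6 in Bnc2+/- mice, without a test.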

How the data were processed

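Total liver RNA of 20 mice was hybridised to Affymetrix MoGene 2.0 ST arrays, 1 per mouse. The deposited values are log2 signals, which the authors made with Affymetrix Power Tools by correcting for GC content, scaling the intensities and applying the RMA summary (robust multi-array averaging) to core genes. For this software the version, and for the mouse annotation the build, are not given in the sources used here. Array signals are compressed at their high and low ends. Depth does not apply to arrays, whose number limits the precision.

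Of 41345 probe sets, 23521 were annotated to 1 gene, 1820 to several and 16004 to none. Those with 1 gene were averaged per symbol, which gave 22180 genes. For 3 members, Cyp2c29, Cyp2c55 and Cyp2f2, a pair of probe sets was averaged. A probe set shared by Cyp2c67 and Cyp2c68 was left out. Genotypes were compared as heterozygous minus WT with limma 3.58.1 in R 4.3.3 (lmFit and eBayes, no covariate), with Benjamini-Hochberg adjustment over all genes and a threshold of 0.05, as well as by 100000 two-sided permutations of the genotype labels. Correlations used Pearson's r and Spearman's rho within each genotype with 100000 permutations, adjusted over all relations of a family. Promoters came from RefSeq tables of GRCm38.p6, searched with Python 3.11.15 and aligned with Biopython 1.88. The limma p-values set a genotype difference against the spread between mice. Permutation p-values set a difference or a correlation against the same values with the mice shuffled.

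The members, gene lists and rules were chosen with earlier results of these data known. Named members were the highest in mean signal of each subfamily, the 6 with the smallest p in each direction, the 5 with the largest SD and 10 textbook members. Of each list, up to 3 genes with the smallest p were considered, with Por, Nr1i3, Nr1i2 and Bnc2. Outside this rule, Slco1a1 was named for its large difference, and Alb, Apob and Ttr for signal near the array maximum. On simulated data with 100 genes changed by 0.5 and 100 by 1 (log2) among 22180, limma recovered 70.7% and 95.7%, with 8 false calls. These shares do not give the recovery for the members, which vary more. The median SD between mice was 0.41 over the members and 0.23 over all genes. Alternatives were other scalings, a filter on dim genes, other uses of probe sets, other priors, array weights, a block on the replicate number and leaving out each array. The replicate numbers of the labels do not state a shared litter or day, so they were not used as pairs.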

Additional observations from a re-analysis of the deposited data

Results flagged for a closer look

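Within each genotype, the highest and the lowest mouse of every member were checked for a gap to the rest that was large against the range of the group (above 0.466 of it for 10 mice). Of 98 groups, 5 had such a gap, and chance gives about 1 in 20. Cyp2b9 in Bnc2+/- replicate 3 stood at 10.1, with the nearest mouse of its group at 14.1. Cyp2c29 in Bnc2+/- replicate 1 stood at 10.2, with the nearest at 11.4. Cyp2b10 in Bnc2+/- replicate 10 stood at 4.42, with the nearest at 5.21, both in the range of dim signal. Cyp2a5 in WT replicate 9 stood at 11.1, with the nearest at 12.1. Cyp2j5 in WT replicate 7 stood at 16.5, with the nearest at 16.9. In all 5 the mouse was the lowest of its group.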

How the results depend on the processing

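Under every alternative run, 0 members passed the adjusted limma test, and the smallest adjusted p over all genes ran from 0.248 to 0.737. The number of members higher on average was 36 to 42 of 49 when 1 mouse was left out, and the median difference 0.0821 to 0.15, the highest without Bnc2+/- replicate 3. Members higher at an unadjusted p under 0.05 numbered 2 to 5 when 1 mouse was left out (5 without WT replicate 1) and 1, Cyp2f2, when only genes at or above the median level were fitted, since the other members were dim and not fitted. Members lower numbered 0 to 1 (1, Cyp2j9, without WT replicate 7). The replicate numbers did not pair the mice, with correlations of same-numbered deviations from -0.172 to 0.166, over 0.1 in 4 of 10 pairs, and 2 of 10 best with their own number. With the replicate block the count of members lower was 1, Cyp2j9, and the count higher stayed at 3, with Cyp2c54 in place of Cyp2b10; the block changed no adjusted call. Pairs with r over 0.8 in both genotypes numbered 1 to 5 when 1 mouse was left out (5 without WT replicate 9, 1 without Bnc2+/- replicate 3), an alternative added after the data were seen. Of 774 values of the 27 named members, 45 changed sign, 43 of them when 1 mouse was left out, and 19 members never changed sign. Cyp2d26 was 0.00637 under quantile normalization and Cyp2g1 was -0.000633 under array weights. When 1 mouse was left out, Cyp2a4 ran from -0.314 to 0.0449, Cyp2b9 from -0.0623 to 0.853, Cyp2c37 from -0.109 to 0.255, Cyp2c50 from -0.0584 to 0.207, Cyp2d26 from -0.038 to 0.017, Cyp2g1 from -0.077 to 0.124, Cyp2t4 from -0.00386 to 0.077 and Cyp2w1 from -0.0398 to 0.053. Of the members that kept their sign, Cyp2b13 ran from 0.0103 (without Bnc2+/- replicate 7) to 0.654, Cyp2c23 from 0.0156 (without WT replicate 7) to 0.563, Cyp2c54 from 0.251 to 0.697 and Cyp2c29 from 0.26 to 0.5. Cyp2f2 ran from 0.447 to 0.66, with an unadjusted limma p of at most 0.0459, and Cyp2b10 from 0.269 to 0.462, with an unadjusted limma p of at most 0.0997. Signal near the array maximum (Cyp2e1) and in the dim range (18 members) limits what could be seen there.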
